A study of Mus musculus with 30 samples.

Results

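The 39 Hox genes of the mouse, those with a symbol of Hox, a letter from a to d and a number, were followed in 30 RNA-seq libraries of fibroblasts being turned into induced pluripotent stem cells (iPSCs). All 39 were found among the 55401 gene identifiers of the expression tables. Each of the 15 groups had 2 libraries. In the 4-factor arm, mouse embryonic fibroblasts (MEFs) of genotype 129XOG2 carried Oct4, Sox2, Klf4 and c-Myc on lentivirus, were treated with doxycycline at 2 ug/ml, and were sampled on day 0, day 2, day 4 and day 7 and as iPSCs (groups 4F-D0, 4F-D2, 4F-D4, 4F-D7 and 4F-iPSC). In the chemical arm, MEFs of genotype CF1 were reprogrammed with small molecules and sampled on day 0, day 4, day 8 and day 12 and as iPSCs (CF1-D0, CF1-D4, CF1-D8, CF1-D12 and CF1-iPSC). The labels used here do not list the small molecules of that medium. In the removal experiment, OG2 MEFs of genotype 129XOG2 went through chemical reprogramming, a single small molecule was left out from day 8, and cells were collected on day 12 (-CHIR, -PD, -VC and -WS, with CT). CT, VC and WS are not expanded in the labels, and CT was taken as the arm with nothing left out. Both iPSC groups were kept on feeder cells in medium with mLIF at 1000 units/mL, CHIR99021 at 3 μM and PD0325901 at 0.2 μM. Strain and method differ together between the 4-factor and chemical arms, so their parts in any difference between the arms cannot be told apart.

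Hox genes encode homeodomain transcription factors that give cells along the head-to-tail axis, and along the limbs, their regional identity. They lie in 4 clusters, HoxA to HoxD, in which low paralog numbers (anterior genes) act towards the head and high numbers (posterior genes) towards the tail and the tips of the limbs. Adult and embryonic fibroblasts are known to keep the Hox pattern of the site they came from, often called positional memory, whereas Hox clusters in pluripotent cells are largely silent and carry repressive chromatin of the Polycomb type. In mm10 coordinates (GENCODE M21), HoxA holds 11 genes at chr6:52155590-52260880, HoxB 10 genes at chr11:96194316-96368256, HoxC 9 genes at chr15:102921103-103036852 and HoxD 9 genes at chr2:74668310-74765142. The clusters span 105, 174, 116 and 96.8 kb in that order. Below, paralogs 1 to 4 are called anterior, 5 to 8 central and 9 to 13 posterior.

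Levels are FPKM as deposited, that is, sequenced fragments relative to transcript length and to the size of the library. A gene counts as present in a group when both libraries reach 1 FPKM. No label states that the 2 libraries of a group are separate cultures, and a p-value here weighs a difference against the spread of these libraries, which may be technical. Replicates correlated at r = 0.9620 to 0.9960 across genes; the 4F-D4 pair stood farthest apart, with 600 genes differing by more than 2-fold between its libraries, and the mitochondrial share of CT replicate 2 was 2.03% against 6.52% in CT replicate 1. From the steps of the lowest values, a single step in a 2000 bp transcript was read as worth 0.0125 to 0.0145 FPKM. All 15 fibroblast markers were present in every group except 4F-iPSC, where 11 were, and all 12 pluripotency markers were present in both iPSC groups. Exons of some members overlap a neighbour (62.8% of exonic bases of Hoxd3, 52.9% of Hoxb3, 52.3% of Hoxd4 and 35% of Hoxa11), and the use of strand in counting is not given in the sources, so levels of these genes are uncertain.

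Upstream sequence was taken from RefSeq (GRCm38.p6, the mm10 assembly), whose promoter table matched 22 of the 39 genes with 24 windows. These 250-base stretches held a median of 12.5 CG dinucleotides, with a range of 2 to 35, against 6 over all 32841 windows. The retinoid receptor core hexamer AGGTCA lay on either strand of 6 of the 24 Hox windows (25%) and of 14% of all windows. The TATA box TATAAA lay in 4 of the 24 (16.7%) and in 12.4% of all. 4 windows that end at the base before the RefSeq start are printed for genes that recur below: Hoxa5 and Hoxd4, central and anterior genes called higher on day 4 of the chemical arm, and Hoxa13 and Hoxd13, posterior genes that stayed high in the 4-factor arm until the iPSC stage. They are written 5′ to 3′ on the gene's strand, with capitals marking every match to AGGTCA or TATAAA on either strand. The windows are chr6:52204588-52204837 on the minus strand (Hoxa5), chr2:74721728-74721977 on the plus strand (Hoxd4), chr6:52260881-52261130 on the minus strand (Hoxa13) and chr2:74667975-74668224 on the plus strand (Hoxd13).
Hoxa5: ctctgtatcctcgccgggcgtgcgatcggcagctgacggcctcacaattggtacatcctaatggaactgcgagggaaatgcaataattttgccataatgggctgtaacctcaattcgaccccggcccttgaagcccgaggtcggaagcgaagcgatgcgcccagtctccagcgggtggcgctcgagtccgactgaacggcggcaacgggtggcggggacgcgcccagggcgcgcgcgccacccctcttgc
Hoxd4: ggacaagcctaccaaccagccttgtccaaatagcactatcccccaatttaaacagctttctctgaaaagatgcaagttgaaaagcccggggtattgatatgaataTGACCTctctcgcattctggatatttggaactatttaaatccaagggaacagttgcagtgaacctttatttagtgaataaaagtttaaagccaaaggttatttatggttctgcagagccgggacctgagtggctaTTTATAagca
Hoxa13: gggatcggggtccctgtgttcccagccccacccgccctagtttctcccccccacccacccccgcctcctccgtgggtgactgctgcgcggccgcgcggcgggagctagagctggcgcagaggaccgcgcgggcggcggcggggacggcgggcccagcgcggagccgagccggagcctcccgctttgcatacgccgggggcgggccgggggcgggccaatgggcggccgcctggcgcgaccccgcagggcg
Hoxd13: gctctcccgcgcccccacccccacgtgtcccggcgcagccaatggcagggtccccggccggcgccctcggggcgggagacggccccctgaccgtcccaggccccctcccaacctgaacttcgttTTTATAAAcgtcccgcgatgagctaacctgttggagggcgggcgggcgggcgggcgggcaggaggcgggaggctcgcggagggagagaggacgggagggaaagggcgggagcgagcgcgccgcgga
The Hoxa5 window held 28 CG and the Hoxa13 window 35, each with no match to either motif. The Hoxd4 window held 3 CG, with AGGTCA and TATAAA each on the other strand. The Hoxd13 window held 31 CG and a run, TTTATAAA, in which TATAAA on both strands overlaps. A match is a description of letters and not of a bound site.

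On day 0 the MEFs of both arms expressed genes from all 4 clusters, but with a different balance. In 4F-D0, 30 of the 39 members were present and the highest was Hoxd13, which patterns the digits and the genital tubercle, followed by Hoxa10 and Hoxb9. In CF1-D0, 27 were present and Hoxc6, a gene of the thoracic and forelimb level, was highest, followed by Hoxc8 and Hoxd13. Posterior genes made up 64.7% and 65.2% of the summed Hox FPKM in the 4F-D0 libraries, and 39.8% and 39.3% in CF1-D0. Hoxd13 stood at 32.4 and 32.6 FPKM in 4F-D0 and at 12.7 and 11.7 FPKM in CF1-D0. Hoxc6 was 12.6 and 11.5 FPKM in 4F-D0 against 20.8 and 17.8 FPKM in CF1-D0. Neither gene's libraries overlapped between the arms, and the day-0 levels of the 2 tables were not tested against each other, because they come from different strains and tables.

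**Figure D1:**
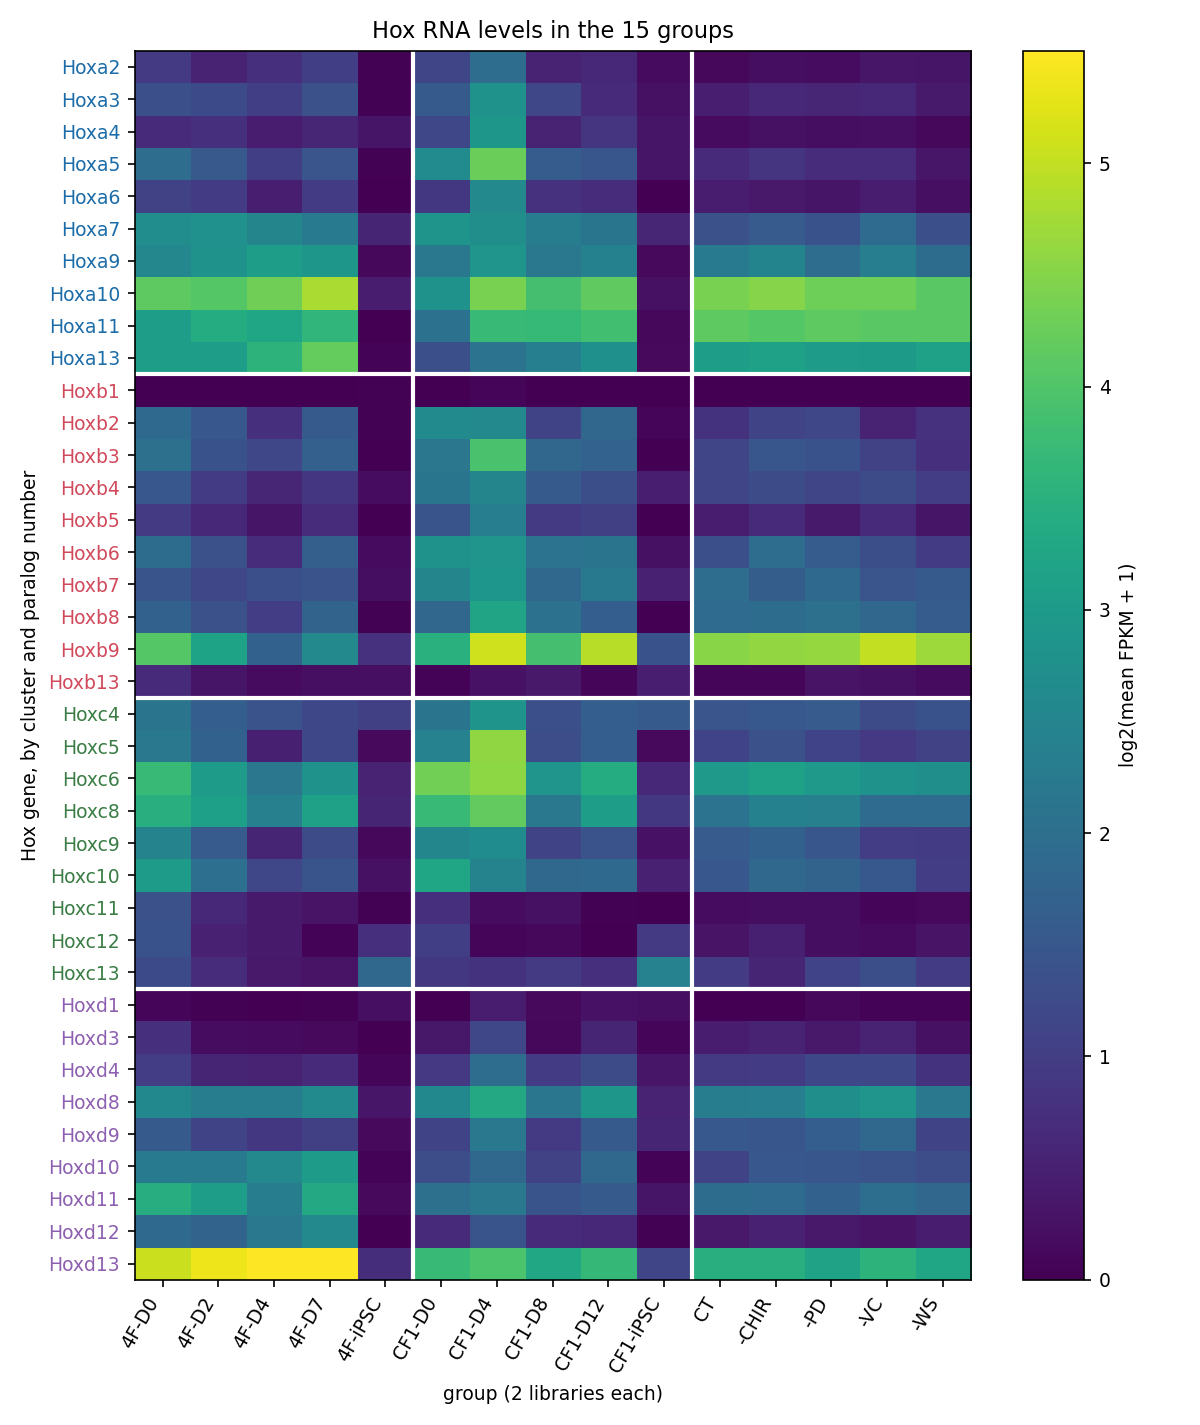
Mean FPKM of the Hox genes reported here (rows, by cluster and paralog number) in each of the 15 groups (columns), on a log2(FPKM + 1) colour scale. Most rows are bright in one or more fibroblast or intermediate groups and dark, at low values, in both iPSC columns, where Hoxc13 and Hoxc4 are the brightest rows drawn.

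Across all libraries, 3 members never reached 1 FPKM: Hoxb1, a hindbrain gene, Hoxd1, and Hoxb13, a gene of the tail end of the body and the prostate. Only Hoxc4 reached 1 FPKM in all 30 libraries. In CF1-D4, 22 members had their highest single value, among them Hoxb1 and Hoxd1, which stayed under 1 FPKM. The share of all genes with their highest value there was not computed. The 3 sets of libraries may have been normalized separately. Summed over members, Hox RNA was 186 and 182 FPKM in 4F-D0 and 10.9 and 11.2 FPKM in 4F-iPSC. It was 152 and 147 FPKM in CF1-D0, 292 and 289 FPKM in CF1-D4, and 20.7 and 18.5 FPKM in CF1-iPSC. In these bulk samples, fewer cells that express a gene and less RNA per cell cannot be told apart.

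Each member was classed by its level on day 0 and in iPSCs: kept (present in both), lost (present on day 0 only), gained (present in iPSCs only), low (present in neither) or mixed (a group whose libraries fall on both sides of 1 FPKM). Most Hox genes that fibroblasts expressed were lost in both arms. In the 4-factor arm 28 were lost, 2 kept (Hoxc4 and Hoxc13), 7 low and 1 mixed. In the chemical arm 23 were lost, 2 kept (Hoxb9 and Hoxc4), 7 low and 5 mixed, and Hoxc13 was gained. Of all genes present on day 0, 11.7% were lost in the 4-factor arm and 10.6% in the chemical arm, against 28 of 30 and 23 of 27 present Hox genes. Of all such genes 85.8% and 87.2% were kept, and of genes under 1 FPKM on day 0, 3.47% and 3.94% were gained. The same 20 Hox genes were lost in both. These counts depend on the presence threshold; the kept count became 6 and 7 in the 2 arms at 0.5 FPKM, 0 in both at 2 FPKM, and 8 in both when values were rescaled to TPM.

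Cluster by cluster, HoxA had 8 lost genes in the 4-factor arm and 9 in the chemical arm, and no kept member in either. HoxB had 7 lost genes in each arm, and Hoxb9 kept in the chemical arm only. HoxC had 7 lost and 2 kept genes in the 4-factor arm, and 4 lost, 1 kept, 1 gained, 1 low and 2 mixed in the chemical arm. HoxD had no kept or gained member in either arm, with 6 lost in the 4-factor arm and 3 in the chemical arm. The 3 HoxD genes classed mixed in the chemical arm were Hoxd4, Hoxd9 and Hoxd13.

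**Figure D2:**
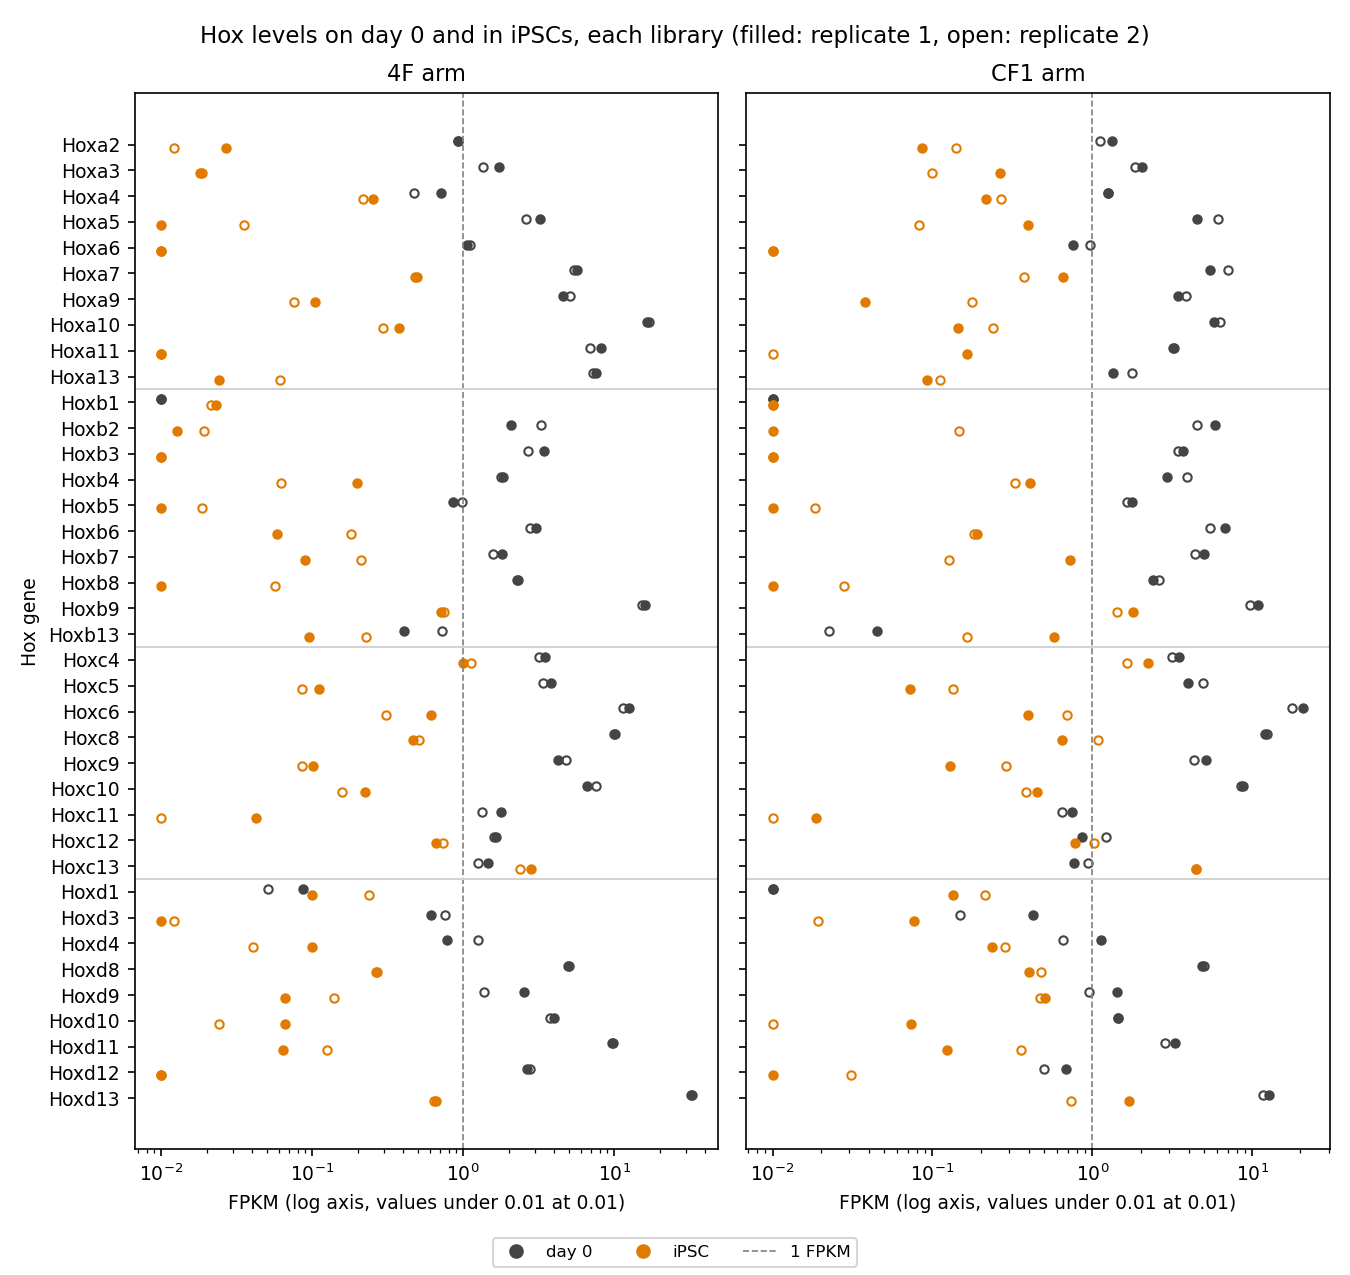
FPKM (log axis) of the Hox genes reported here on day 0 and in iPSCs, with one point per library, for the 4-factor arm and the chemical arm. In both panels the iPSC points of most genes lie left of the 1 FPKM line, and those of Hoxc13 and Hoxc4 lie at or right of it.

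The largest falls into the iPSC state were those of the posterior genes Hoxd13 and Hoxa10 in the 4-factor arm and of the central genes Hoxc6 and Hoxc8 in the chemical arm. By limma's test on log2(FPKM + 1) with Benjamini-Hochberg adjustment, and a call at an adjusted p under 0.05 with at least a 2-fold difference, 28 of the 31 Hox genes tested were lower and none higher in 4F-iPSC than in 4F-D0. Over all genes tested, 19.4% were lower and 22.2% higher. At an unadjusted p under 0.05, 2 Hox genes were higher and 29 lower, against 39.8% and 33% of all genes. In the chemical arm 24 of 35 tested members were lower and 1, Hoxc13, was higher in CF1-iPSC than in CF1-D0, against 19.4% lower and 21.1% higher of all genes. The median difference of the tested members was -2.01 in the 4-factor arm and -1.79 in the chemical arm, beside 0.14 and 0.05 over all genes tested. Folds on this scale understate the change of genes with low levels.

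Among posterior genes, Hoxd13 went from 32.4 and 32.6 FPKM in 4F-D0 to 0.664 and 0.636 FPKM in 4F-iPSC, with no overlap (log2 difference -4.35 ± 0.11 SE, adjusted p = 7.15e-09). Hoxa10, which acts in the lumbar axis and the reproductive tract, went from 16.5 and 16.9 FPKM to 0.377 and 0.293 FPKM (-3.73 ± 0.11, adjusted p = 1.07e-08). Hoxa11, needed for the forearm and kidney, stood at 8.21 and 6.85 FPKM in 4F-D0 and was listed at 0 in both 4F-iPSC libraries. In the chemical arm Hoxd13 stood at 12.7 and 11.7 FPKM on day 0 and at 1.68 and 0.735 FPKM in iPSCs, so that the iPSC libraries fell on either side of the threshold (-2.61 ± 0.18, adjusted p = 1.14e-06). Hoxa10 went from 5.79 and 6.27 FPKM to 0.144 and 0.238 FPKM there (-2.56 ± 0.08, adjusted p = 6.02e-09). The day-0 and iPSC libraries of these genes did not overlap in either arm.

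Among central genes, Hoxc6 went from 20.8 and 17.8 FPKM in CF1-D0 to 0.393 and 0.698 FPKM in CF1-iPSC (-3.72 ± 0.15, adjusted p = 3.89e-08), the largest Hox change of that comparison. Hoxc8, which sets brachial motor neuron and rib identity, went from 12 and 12.3 FPKM to 0.642 and 1.08 FPKM (-2.83 ± 0.12, adjusted p = 5.15e-08). In the 4-factor arm the same genes differed by -3.16 ± 0.22 (Hoxc6) and -2.89 ± 0.16 (Hoxc8), with adjusted p = 1.64e-06 and 4.44e-07. Anterior genes started lower. Their summed FPKM was 16.2 and 16.7 in 4F-D0 and 23.1 and 21 in CF1-D0, and 2.81 and 3.32 in 4F-iPSC and 6.21 and 5.47 in CF1-iPSC. Hoxb3 fell in both arms and was listed at 0 in all 4 iPSC libraries, from 3.42 and 2.69 FPKM in 4F-D0 and 3.69 and 3.45 FPKM in CF1-D0.

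Hoxc13, Hoxc4 and Hoxb9 were present in at least 1 iPSC group. Hoxc13, a posterior gene known for its role in hair and nails, stood at 1.46 and 1.26 FPKM in 4F-D0, 0.325 and 0.927 in 4F-D2, 0.279 and 0.306 in 4F-D4, 0.25 and 0.214 in 4F-D7, and 2.8 and 2.37 in 4F-iPSC. In the chemical arm it stood at 0.772 and 0.945 FPKM in CF1-D0, 0.658 and 0.821 in CF1-D4, 1.08 and 0.766 in CF1-D8, 0.747 and 0.673 in CF1-D12, and 4.47 and 4.44 in CF1-iPSC. Both iPSC groups lay above every other group of their arm. Hoxc13 was higher in CF1-iPSC than in CF1-D0 (1.56 ± 0.11, adjusted p = 1.1e-06) and in 4F-iPSC than in 4F-D7 (1.54 ± 0.17, adjusted p = 3.35e-05). Against 4F-D0 its difference was 0.60 ± 0.17 (adjusted p = 0.0107), under 2-fold and not called. Its mean in 4F-iPSC was 190% of that in 4F-D0.

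Hoxc4, a gene of the neck and upper spinal cord, was kept by the presence rule and still fell in the 4-factor arm. It stood at 3.5 and 3.19 FPKM in 4F-D0 and at 1 and 1.12 FPKM in 4F-iPSC, just at the threshold (-1.07 ± 0.13, adjusted p = 6.6e-05). In CF1-iPSC it was 2.23 and 1.65 FPKM against 3.46 and 3.16 FPKM in CF1-D0, a difference of -0.56 ± 0.13 that was not called (adjusted p = 0.00308). Its mean iPSC level was 31.8% of day 0 in the 4-factor arm and 58.6% in the chemical arm. Hoxb9, a gene of the thoracic ribs, fell in both arms, and was kept in CF1-iPSC because its 1.79 and 1.43 FPKM remained above 1, at 15.6% of day 0. In 4F-iPSC it was 0.71 and 0.746 FPKM, or 4.67% of day 0. Just under the threshold, Hoxc12 stood at 0.66 and 0.74 FPKM in 4F-iPSC, and at 0.775 and 1.03 FPKM in CF1-iPSC, where it was listed at 0 in both CF1-D12 libraries.

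Feeder cells were part of both iPSC cultures, and the residual Hox level can be set beside that of fibroblast genes. For the 28 Hox genes lost in the 4-factor arm, the iPSC mean was a median of 2% of day 0 (0% to 43.3%), and for the 15 fibroblast markers it was 1.22% (0.148% to 17.8%). For the 23 lost in the chemical arm the median was 4.38% (0% to 19.4%), against 5.4% (0.583% to 43.7%) for the markers. The lost genes were chosen by iPSC levels under 1 FPKM and the markers were not, so these medians are not like for like. Hox genes with a day-0 mean of at least 1 FPKM, whatever their iPSC level, numbered 31 and 29. Their median was 2.06% (0% to 190%) in the 4-factor arm and 6.6% (0% to 86.9%) in the chemical arm. Summed fibroblast marker FPKM was 397 and 383 in 4F-iPSC and 638 and 637 in CF1-iPSC, with Lum alone under 0.1 FPKM in 4F-iPSC and no marker under it in CF1-iPSC. The part of feeder RNA in the residual Hox levels was not tested.

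During the first week of the 4-factor arm, the members called lower on the log2(FPKM + 1) scale were mainly HoxC and HoxB genes. By day 4 they were 5 HoxC, 3 HoxB and 1 HoxD gene and no HoxA gene. On day 2 the only call was Hoxc10, a hindlimb-level gene, at 6.56 and 7.59 FPKM in 4F-D0 and 2.94 and 3.1 FPKM in 4F-D2 (adjusted p = 0.00268), a difference at the 2-fold limit on the log2(FPKM + 1) scale. That is 1 of 31 tested and none higher, near the 1.73% lower and 1.95% higher among all genes, and the call was lost without 4F-D0 replicate 2 (-0.91) or without 4F-D2 replicate 1 (-0.97). Counted by an unadjusted p under 0.05, 1 member was higher and 13 lower, against 16.4% and 10.5% of all genes. By day 4, 9 members were lower than on day 0 and none higher, against 7.41% lower and 9.44% higher of all genes. Without adjustment, 3 were higher and 19 lower at p under 0.05, against 29.6% and 24.5% of all genes. The 9 were Hoxb9, Hoxc9, Hoxc10, Hoxc5, Hoxc6, Hoxb6, Hoxd11, Hoxb2 and Hoxc8. The median differences of tested members were -0.22 for HoxA, -0.89 for HoxB, -1.09 for HoxC and 0.00 for HoxD, against 0.04 over all genes. This scale understates falls of genes with low levels, so the split by cluster may depend on it. With a pseudocount of 0.1, 17 members were called lower, and 19 with TPM, beside 1563 and 2088 of 14761 genes.

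Hoxb9 had the largest day-4 difference on the log2(FPKM + 1) scale. It stood at 16 and 15.2 FPKM in 4F-D0, 8.71 and 7.68 in 4F-D2, 2.79 and 1.78 in 4F-D4, and 4.94 and 5.15 in 4F-D7. Every later library lay under both day-0 libraries, and the day-4 difference was -2.35 ± 0.16 (adjusted p = 1.26e-05). Hoxd13 stood at 41.4 and 39 FPKM in 4F-D2, 40.9 and 48 in 4F-D4, and 43.8 and 44.7 in 4F-D7, above its day-0 libraries throughout but short of a 2-fold difference. Hoxd11, which acts with Hoxa11 in the forearm, rests on a single library: it was 6.26 FPKM in 4F-D4 replicate 1 and 1.79 FPKM in replicate 2, and its difference was -1.25 with both and -0.56 without replicate 2. Its call was also lost without either 4F-D0 library. Without 4F-D4 replicate 2, 7 members were called lower, and Hoxc8 (-0.87) was not among them. Without 4F-D4 replicate 1, 13 were called. Hoxb2 (-0.88) lost its call without 4F-D0 replicate 2.

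On day 7 the loss was confined to HoxC and Hoxb9 among called members, and Hoxa13 had risen. Hoxa13, the HoxA counterpart of Hoxd13 in the hand plate, went from 7.53 and 7.19 FPKM in 4F-D0 to 18.5 and 16.4 FPKM in 4F-D7, with no overlap (1.14 ± 0.14, adjusted p = 0.000489). The 6 lower members were Hoxc10 (-1.59), Hoxb9 (-1.46), Hoxc12 (-1.34), Hoxc9 (-1.20), Hoxc11 (-1.07) and Hoxc5 (-1.01). Of all genes, 6.21% were higher and 3.91% lower. Leaving out 4F-D0 replicate 1 left 4 calls, since Hoxc5 (-0.94) was no longer called and Hoxc11 and Hoxc12 no longer passed the level filter. Without 4F-D7 replicate 1, Hoxc11 (-0.93) and Hoxc5 (-0.99) were not called. Posterior genes made up 76.6% and 74.8% of summed Hox FPKM in 4F-D7. From 4F-D7 to 4F-iPSC, 23 members fell and Hoxc13 rose, against 21.8% lower and 23.9% higher of all genes.

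**Figure D3:**
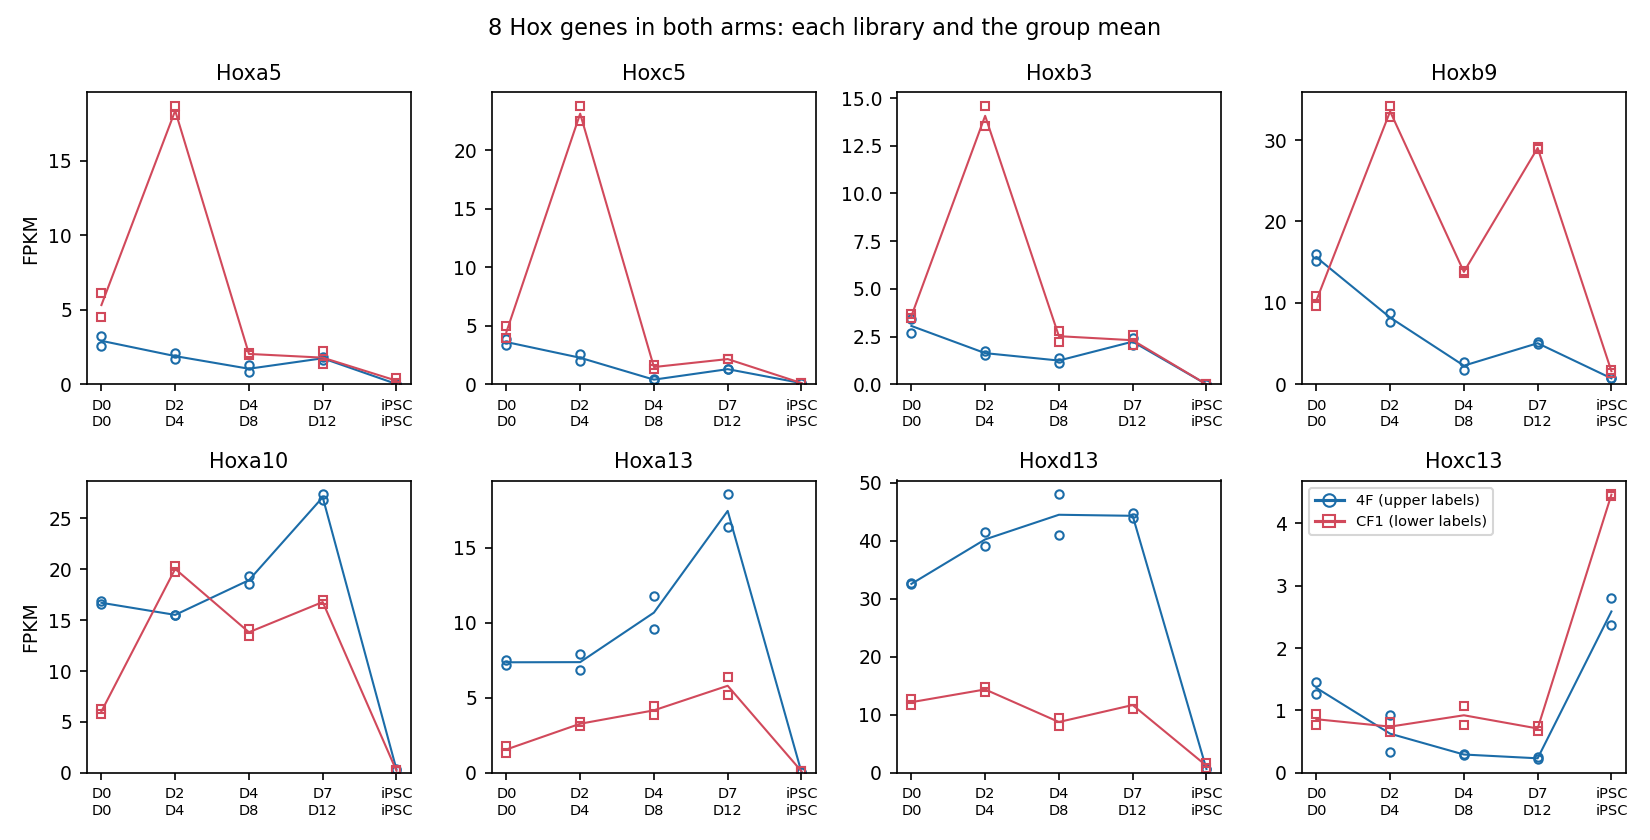
FPKM of 8 Hox genes over the samples of the 4-factor arm and the chemical arm, with one point per library and a line through group means. Hoxb9 falls by 4F-D4 and peaks in CF1-D4 and CF1-D12, and Hoxd13 stays near or above its day-0 level in the 4-factor arm until iPSCs.

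In the chemical arm, day 4 brought higher Hox levels instead. In CF1-D4, 12 of 35 tested members were higher than in CF1-D0 and none lower, against 11.7% higher and 8.08% lower of all genes. With an unadjusted p under 0.05, 24 were higher and 2 lower, against 34.7% and 30.2% of all genes. The 12 were Hoxc5, Hoxa4, Hoxb3, Hoxa6, Hoxa11, Hoxa5, Hoxb9, Hoxa10, Hoxb8, Hoxa3, Hoxd9 and Hoxd4, which spread over paralogs 3 to 11. HoxA gave 6 of its 11 tested members, HoxB 3 of 8, HoxC 1 of 8 and HoxD 2 of 8. The median difference of tested members was 0.74 against 0.04 over all genes.

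Hoxc5, a gene of the neck-to-thorax transition, went from 3.98 and 4.95 FPKM in CF1-D0 to 23.8 and 22.5 FPKM in CF1-D4 (2.15 ± 0.11, adjusted p = 4.97e-07), and was 1.64 and 1.3 FPKM in CF1-D8. Hoxa5, which acts in lung and neck-level vertebrae, went from 4.54 and 6.1 FPKM to 18.1 and 18.7 FPKM (1.63 ± 0.18, adjusted p = 6.69e-05), and was 2.1 and 1.97 FPKM in CF1-D8. In both genes the day-4 libraries lay far above all others of the arm. Hoxb9 went from 10.9 and 9.67 FPKM to 32.8 and 34.2 FPKM (1.61 ± 0.09, adjusted p = 4.82e-07), and Hoxa10 from 5.79 and 6.27 FPKM to 19.8 and 20.3 FPKM (1.58 ± 0.08, adjusted p = 2.91e-07). In CF1-D8 Hoxa10 stood at 13.5 and 14.1 FPKM, above its day-0 libraries, and Hoxb9 at 13.9 and 13.7 FPKM. Hoxc10 moved the other way, with 8.72 and 8.51 FPKM in CF1-D0 and 4.54 and 4.45 FPKM in CF1-D4, short of a call. Hoxd9 and Hoxd4 were near the limit: without CF1-D0 replicate 2 their differences were 0.93 and 0.87 and 10 members were called, Hoxd4 was 0.86 without CF1-D4 replicate 2, and both lost their calls after quantile normalization (0.79 and 0.74).

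Markers of other cells moved on the same day. All 8 macrophage markers fell, from a summed 268 and 254 FPKM in CF1-D0 to 12.5 and 12.3 FPKM in CF1-D4, where Ptprc was under 0.1 FPKM. Of the 15 fibroblast markers, 6 rose and 7 fell. Of all genes, 11.7% were higher and 8.08% lower in this comparison. Summed fibroblast marker FPKM was 7.65e+03 and 7.51e+03 in CF1-D0 and 4.27e+03 and 4.36e+03 in CF1-D4. The 6 endothelial markers summed to 6.32 and 6.22 FPKM before and 37.6 and 38 FPKM on day 4, with Emcn and Cldn5 under 0.1 FPKM. The part of these changes in the Hox differences was not tested.

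**Figure D4:**
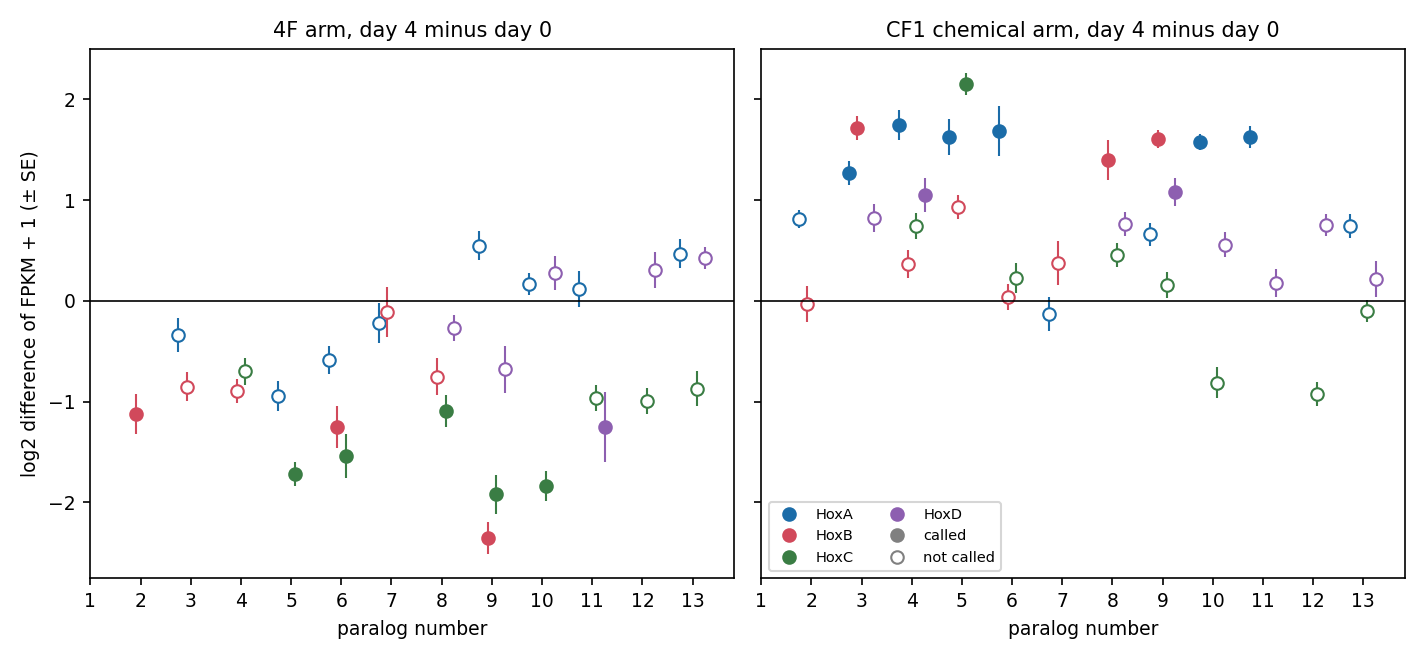
Log2 difference from day 0 to day 4 (y axis, log2(FPKM + 1) scale, bars: SE) by paralog number (x axis) in the 4-factor arm and the chemical arm, coloured by cluster, with filled points for called genes. Most tested genes lie above 0 in the chemical arm, with Hoxc5 highest at 2.15, and HoxB and HoxC genes lie mainly below 0 in the 4-factor arm, with Hoxb9 lowest at -2.35.

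By day 8 most anterior and central genes had come down again, and fewer posterior genes were called lower. From CF1-D4 to CF1-D8, a comparison added after its values were seen, 21 of 35 tested members fell and none rose, against 7.47% lower and 5.61% higher of all genes. The counts at an unadjusted p under 0.05 were 31 lower and 0 higher, against 36.7% and 24% of all genes. The 21 comprised 9 of 10 tested anterior, 9 of 11 central and 3 of 14 posterior genes. The largest falls were those of Hoxc5 (-3.29), Hoxa5 (-2.67), Hoxa4 (-2.39) and Hoxb3 (-2.10). Summed anterior FPKM was 51.1 and 53.5 in CF1-D4 and 10.1 and 11.1 in CF1-D8.

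Of 35 tested members, 3 were higher in CF1-D8 than on day 0: Hoxa11, Hoxa10 and Hoxa13. The 7 lower ones were Hoxc8, Hoxb2, Hoxc6, Hoxc10, Hoxc9, Hoxc5 and Hoxa5, beside 11.9% higher and 12.4% lower of all genes. On values rescaled to TPM the split was 2 higher and 12 lower, beside 2054 higher and 2831 lower of 15442 genes. On the log2(FPKM + 1) scale, Hoxa13 (1.02) was under 2-fold without CF1-D0 replicate 1 (0.90) or without CF1-D8 replicate 2 (0.93), as was Hoxa5 (-1.05) without CF1-D0 replicate 2 (-0.87). In CF1-D12, 4 of the 35 were higher than on day 0: Hoxa11, Hoxb9, Hoxa13 and Hoxa10. The 4 lower ones were Hoxc10, Hoxa5, Hoxc9 and Hoxc12. Of all genes, 10.1% were higher and 15.5% lower, so both Hox counts lay near the share of all genes. On TPM the Hox split was 4 higher and 9 lower, beside 1865 higher and 3068 lower of 15442 genes. Without CF1-D12 replicate 1, Hoxa5 was -0.96 and not called.

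Posterior genes took different courses: Hoxc10, Hoxc9 and Hoxc12 were called lower in CF1-D12 than on day 0, as given above. Hoxa11, called higher, stood at 3.21 and 3.22 FPKM in CF1-D0, 12.8 and 11.2 in CF1-D4, 12.5 and 11.3 in CF1-D8, and 13.6 and 12.9 in CF1-D12. Every day-4, day-8 and day-12 library lay above both day-0 libraries (CF1-D12 minus CF1-D0 1.76 ± 0.11, adjusted p = 8.34e-07). Hoxa13 stood at 1.35 and 1.76 FPKM in CF1-D0, 3.12 and 3.41 in CF1-D4, 3.86 and 4.46 in CF1-D8, and 5.21 and 6.38 in CF1-D12, and its day-12 difference was 1.41 ± 0.12 (adjusted p = 9.48e-06). Hoxb9 dipped to 13.9 and 13.7 FPKM in CF1-D8 and was 28.9 and 29.1 FPKM in CF1-D12. It was the only member called between day 8 and day 12, a comparison also added after its values were seen (1.02 ± 0.09, adjusted p = 1.64e-05), against 3.52% higher and 7.69% lower of all genes. From CF1-D12 to CF1-iPSC, 22 members fell and Hoxc13 was among those that rose, beside 20.8% lower and 28.4% higher of all genes. The posterior share of summed Hox FPKM was 62.8% and 63.2% in CF1-D12.

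**Figure D5:**
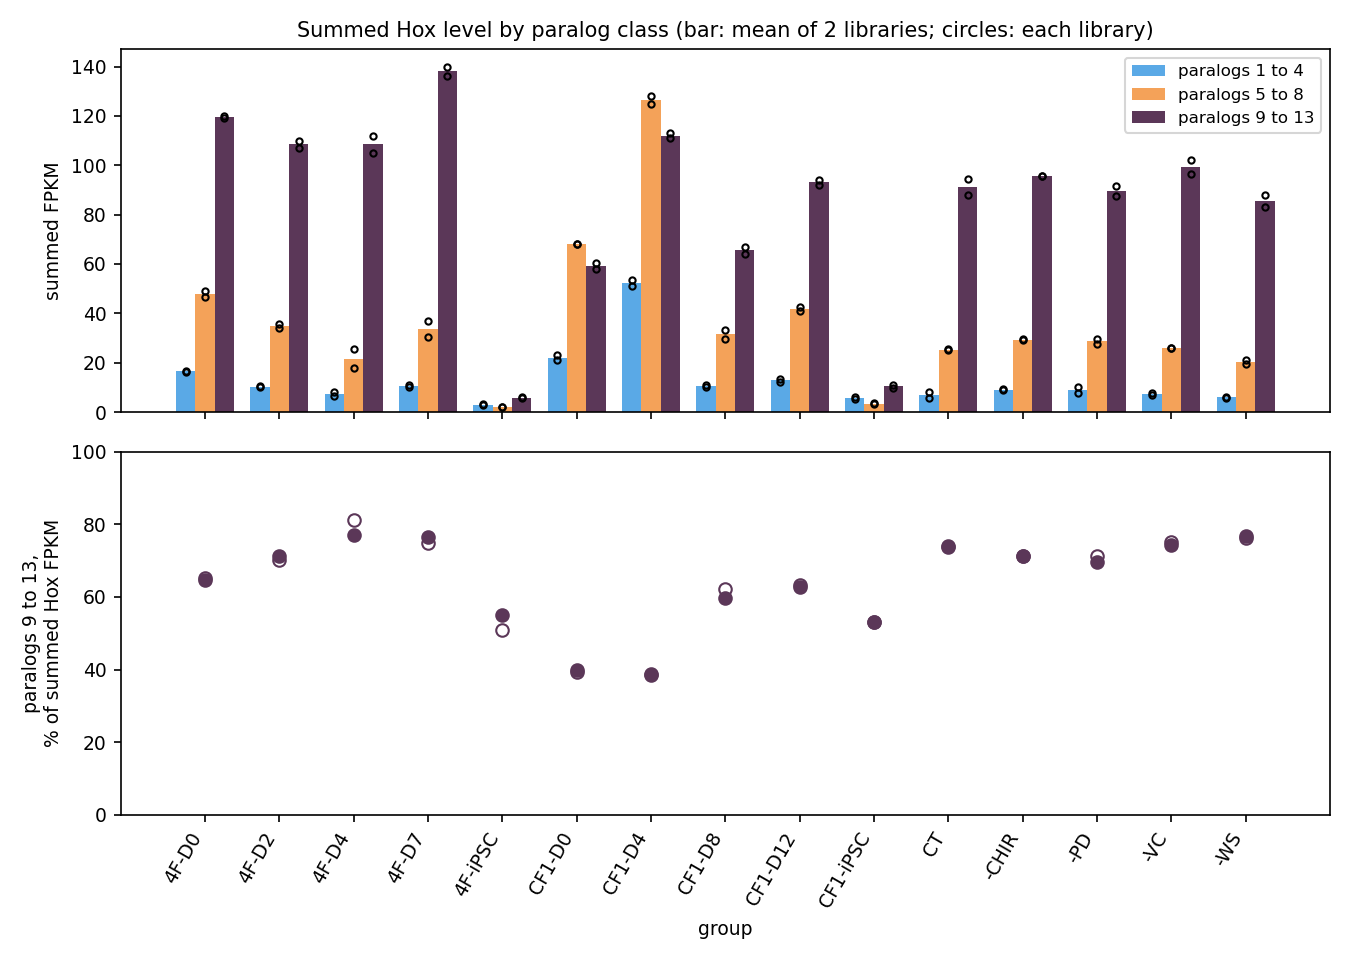
Summed FPKM of anterior, central and posterior Hox genes (upper panel, bars: mean of the 2 libraries, circles: each library) and the percentage of summed Hox FPKM that is posterior (lower panel, one circle per library) in the 15 groups. CF1-D4 has the highest anterior and central sums and 4F-D7 the highest posterior sum, and both iPSC groups have the lowest central and posterior sums.

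The change by day 4 was compared between the arms in a fit over both tables, as the difference of the 2 changes from day 0. Of 36 tested members, 25 had a more positive change in the chemical arm and none a more negative one, against 14.2% and 13.2% of all genes. Unadjusted, at p under 0.05, the counts were 28 and 0, against 28.2% and 29% of all genes. This comparison was added after its values were seen, and it reuses the libraries of both day-4 comparisons. The largest differences were those of Hoxb9 (3.97 ± 0.18, adjusted p = 3.27e-10) and Hoxc5 (3.87 ± 0.17, adjusted p = 1.75e-10). Hoxb9 was 32.8 and 34.2 FPKM in CF1-D4 and 2.79 and 1.78 FPKM in 4F-D4, from day-0 levels of 10.9 and 9.67 FPKM and 16 and 15.2 FPKM. Leaving out single libraries gave 21 to 26 calls, and 22 without 4F-D4 replicate 2, the library farthest from its pair.

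The change from day 0 to iPSCs was compared in the same way, and 7 of 36 members differed, all with a smaller fall in the chemical arm (5.91% of all genes had a more positive and 4.94% a more negative change). Unadjusted counts at p under 0.05 were 15 and 5, against 19.6% and 21.1% of all genes. The 7, Hoxa13, Hoxd13, Hoxd11, Hoxd12, Hoxa10, Hoxb9 and Hoxa11, are all posterior. Each of them started higher in 4F-D0 than in CF1-D0: Hoxa13 stood at 7.53 and 7.19 FPKM against 1.35 and 1.76 FPKM, and Hoxd12 at 2.65 and 2.75 FPKM against 0.684 and 0.502 FPKM. In iPSCs all 7 were under 2 FPKM in both arms. The call for Hoxa10 was lost at a pseudocount of 0.1 (0.87).

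In the removal experiment, leaving out a small molecule between day 8 and day 12 changed no Hox gene by the rule used here. Of 25 tested members, 0 were called in -CHIR, -PD, -VC or -WS against CT, beside 0.971%, 1.27%, 2.33% and 0.91% of all genes called. Before adjustment, at p under 0.05, 2 members were higher and 2 lower in -CHIR (14.7% and 10.1% of all genes), and 2 and 3 in -PD (22.7% and 8.4%). In -VC the numbers were 6 and 2 (33.3% and 12.5%), and in -WS 0 and 9 (16.4% and 9.08%). The 4 comparisons share the CT libraries. The number of members present was 21 in CT, 23 in -CHIR, 24 in -PD, 22 in -VC and 16 in -WS. The leading gene was Hoxb9 in all 5 groups, at 23.8 and 20.1 FPKM in CT, 22.8 and 24 in -CHIR, 24.3 and 23.8 in -PD, 29.9 and 31.7 in -VC, and 23.5 and 26.3 in -WS, followed by Hoxa10 and Hoxa11. Only the -VC libraries of Hoxb9 lay clear of both CT libraries by more than the CT spread, with a difference of 0.48 that was under 2-fold (adjusted p = 0.00505).

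Other members passed the adjusted p of 0.05 with a difference under 2-fold on the log2(FPKM + 1) scale, which understates folds at low levels. Hoxb6 differed by 0.64 in -CHIR (adjusted p = 0.0127), with 2.98 and 2.89 FPKM against 1.57 and 1.48 FPKM in CT. Hoxc9 differed by -0.59 in -VC (adjusted p = 0.00505) and by -0.64 in -WS (adjusted p = 0.00844), with 1.97 and 2.03 FPKM in CT, 0.981 and 1 FPKM in -VC, and 1.06 and 0.801 FPKM in -WS. Hoxd8 differed by 0.54 in -VC (adjusted p = 0.00421) and by 0.41 in -PD (adjusted p = 0.0256). The libraries of these genes did not overlap with CT. Summed fibroblast marker FPKM was 2.32e+04 and 2.96e+04 in CT and 1.27e+04 and 1.29e+04 in -VC. There 5 markers were lower, beside 2.33% of all genes called in either direction. The part of this marker difference in the Hox values was not tested.

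Hox proteins bind DNA together with TALE-class homeodomain cofactors of the Pbx and Meis families. Of 9 such genes, 3 rose in CF1-D4, among them Meis1 (by 1.08) and Meis2 (by 1.91), and 1, Pknox2, fell, beside 11.7% higher and 8.08% lower of all genes. Meis2 stood at 9.92 and 10 FPKM in CF1-D0 and at 37.3 and 43.6 FPKM in CF1-D4, with no overlap. In iPSCs 5 cofactors fell against day 0 in both arms, among them Pbx3, Meis1, Meis2 and Meis3, and Pbx4 rose in the 4-factor arm, beside 19.4% lower of all genes in each arm and 22.2% higher in the 4-factor arm. Among noncoding and antisense RNAs of the clusters, 3 of 8 tested rose in CF1-D4: Hotairm1 (1.06), Hoxaas3 (1.35) and Hoxb5os (1.49), against the same 11.7% of all genes. Halr1, a long noncoding RNA beside HoxA, was listed at 0 in both 4F-D0 libraries and stood at 35.6 and 28.7 FPKM in 4F-iPSC, and at 26.1 and 29.6 FPKM in CF1-iPSC. It rose there while the 28 and 24 Hox genes fell.

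Genes known to act upstream of Hox genes include those of the retinoic acid pathway and Cdx factors, and some of them moved in CF1-D4. Mean levels of Cdx2 and Cdx4 stayed under 0.1 FPKM in CF1-D0 and in CF1-D4. Of 13 upstream genes tested, 6 rose and 1 fell in CF1-D4, beside 11.7% higher and 8.08% lower of all genes. In 4F-D4, 0 rose and 1 fell of 11 by limma (1 and 8 at an unadjusted p under 0.05), beside 9.44% higher and 7.41% lower of all genes. Cyp26b1, an enzyme that degrades retinoic acid, went from 3.85 and 3.74 FPKM in CF1-D0 to 307 and 312 FPKM in CF1-D4 (6.02). Rarb, a retinoic acid receptor that is itself a target of retinoic acid, went from 0.674 and 0.719 FPKM to 48.4 and 50.7 FPKM (4.90). Cyp26a1 was listed at 0 in CF1-D0 and stood at 8.52 and 7.78 FPKM in CF1-D4, and Aldh1a2, which makes retinoic acid, rose by 2.70. All of these changed on the day on which 12 Hox genes were higher, and their part in the Hox differences was not tested. Cdx1, an activator of Hox genes in the embryo, rose in both iPSC groups, to 29 and 37.9 FPKM in 4F-iPSC and 16.6 and 16.2 FPKM in CF1-iPSC. Both iPSC groups had the lowest summed Hox FPKM, though not every Hox gene was lowest there.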

How the data were processed

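Total RNA of 30 mouse libraries was sequenced in reads of 150 bp, per the labels' protocols. The tools, per the submitters' processing notes, were HISAT2 2.2.1, StringTie 2.0 and fastp 0.20.1, with mm10 as the build; annotation and strand setting are not given in the sources used here. The authors deposited FPKM values per gene in 3 tables of 10 libraries, normalized for transcript length and library size. No read counts were recovered from them.

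From these values, identifiers were matched to symbols in GENCODE M21 (99.5% matched). Genes with 2 or more libraries of a table at 1 FPKM or above were tested on log2(FPKM + 1) with limma 3.58.1 (R 4.3.3, trended variance, 1 coefficient per group), within each table, with Benjamini-Hochberg adjustment over all genes tested: 14761 in the 4-factor, 15442 in the chemical and 13290 in the removal table, and 16205 for differences between arms. A call needed an adjusted p under 0.05 and at least a 2-fold difference. Of the 39 Hox genes, 31, 35, 25 and 36 passed that filter in the same order; the others were described by level only. The fit was tested on simulated data. Alternatives were a pseudocount of 0.1, no filter, TPM scaling, quantile normalization, presence thresholds of 0.5 and 2 FPKM, a replicate block and each library left out.

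The Hox genes and the lists of cofactors, cluster noncoding RNAs, upstream regulators, flanking genes, positional transcription factors and cell type markers were chosen with earlier results of these data known. Library values are given for the leading genes of each cluster, those kept or gained, and those called where arms or removals differ; from other lists the largest called changes are named. Counts are over all 39 members, but single results of a member and of a cofactor are not reported here.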

Additional observations from a re-analysis of the deposited data

Results flagged for a closer look

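In 32 results the change from day 0 differed between the chemical and the 4-factor arm by limma's test of that difference on log2(FPKM + 1), with Benjamini-Hochberg adjustment over 16205 genes; each value is the chemical-arm change minus the 4-factor change. Strain and method differ together between the arms and cannot be told apart, and the libraries are those of the comparisons already described.

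For the change from day 0 to iPSCs, 7 posterior genes differed: Hoxa13 by 1.80, Hoxd13 by 1.74, Hoxd11 by 1.57, Hoxd12 by 1.24, Hoxa10 by 1.17, Hoxb9 by 1.15 and Hoxa11 by 1.12. All 7 had lower day-0 levels in CF1 MEFs than in 129XOG2 MEFs.

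For the change from day 0 to day 4, 25 genes differed. In HoxA these were Hoxa5 by 2.57, Hoxa6 by 2.28, Hoxa4 by 1.99, Hoxa3 by 1.61, Hoxa11 by 1.51, Hoxa10 by 1.41 and Hoxa2 by 1.01. In HoxB they were Hoxb9 by 3.97, Hoxb3 by 2.57, Hoxb8 by 2.15, Hoxb5 by 1.58, Hoxb6 by 1.29, Hoxb4 by 1.26 and Hoxb2 by 1.09. In HoxC they were Hoxc5 by 3.87, Hoxc9 by 2.08, Hoxc6 by 1.77, Hoxc8 by 1.55, Hoxc4 by 1.45 and Hoxc10 by 1.04. In HoxD they were Hoxd9 by 1.76, Hoxd4 by 1.51, Hoxd11 by 1.43, Hoxd3 by 1.41 and Hoxd8 by 1.02. Hoxd11 rests on 4F-D4 replicate 2, without which its difference was 0.74 and not called. Hoxc10 (0.86 to 0.94), Hoxb2 (0.85 to 1.00), Hoxd8 (0.95 to 0.98) and Hoxa2 (0.94 to 0.98) were also not called with one or another library left out, and Hoxa2 was 0.87 after quantile normalization.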

How the results depend on the processing

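Of 188 recomputed counts of called or classed Hox genes, 163 stayed within 1.5 times the value in the report. Of 1935 recomputed differences of called genes, 1881 kept their call, 54 lost it and 0 changed sign; 11 could not be computed because the gene no longer passed the filter. With a pseudocount of 0.1, the number of Hox genes called was 3 for 4F-D2, 17 for 4F-D4, 11 for 4F-D7, 19 for CF1-D4 and 15 for CF1-D12 against day 0, 6 for CF1-D12 minus CF1-D8, and 1 for -WS minus CT. Over all genes, higher and lower calls also rose, from 288 and 255 to 504 and 473 for 4F-D2. They went from 1393 and 1094 to 2155 and 1563 for 4F-D4, and from 916 and 577 to 1696 and 882 for 4F-D7. For CF1-D4 they went from 1800 and 1248 to 2689 and 1668, and for CF1-D12 from 1563 and 2386 to 2438 and 3094. For CF1-D12 minus CF1-D8 they went from 544 and 1188 to 957 and 1923, and for -WS from 59 and 62 to 132 and 132. The median difference of all genes was as low as -0.15 with TPM. The number of Hox genes called with TPM was 5 for 4F-D2, 19 for 4F-D4, 13 for CF1-D12 and 3 for CF1-D12 minus CF1-D8. Over all genes, TPM gave 356 higher and 492 lower for 4F-D2, and 1329 and 2088 for 4F-D4. It gave 1865 and 3068 for CF1-D12, and 818 and 1439 for CF1-D12 minus CF1-D8. With quantile normalization, 14 Hox genes were called for 4F-D4, beside 1214 higher and 1256 lower of all genes. For CF1-D12 minus CF1-D8 it gave 3 Hox genes, beside 732 higher and 997 lower of all genes. Leaving out 1 library gave 0 to 1 for 4F-D2 and 4 to 8 for 4F-D7; counts in the removal experiment stayed 0 without any 1 library, CT replicate 2 included. The kept count was 6 and 7 (4-factor and chemical arm) at 0.5 FPKM, 0 and 0 at 2 FPKM, and 8 and 8 on TPM, and the gained count was 0 in both arms at 0.5 FPKM and on TPM. Summed FPKM was 328158 to 469208 per library, so 1 TPM was a lower level than 1 FPKM in each. The cause of these shifts was not tested. The lowest members lie within a few steps of 0, so their absence cannot be read from these values.

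A replicate block changed no count of called Hox genes, with 28 in 4F-iPSC minus 4F-D0 as without it. Deviations of same-numbered libraries correlated at -0.21 to 0.25 in the 4-factor table, -0.11 to 0.07 in the chemical table and -0.06 to 0.05 in the removal table, so the numbers were not taken to pair the libraries.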

Other observations

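Positional transcription factors outside the Hox clusters also fell towards iPSCs. Of 43 listed for limb, trunk and head mesenchyme, 32 were tested in each arm, and 28 fell in 4F-iPSC and 24 in CF1-iPSC against day 0, among them Prrx1 (-5.99 in the 4-factor arm), a limb bud factor, and Twist1 (-4.82). Of all genes, 19.4% were lower in each arm. Tbx3, a limb factor that is also active in pluripotent cells, was the only one that rose (2.92 and 2.45). In CF1-D4, 12 rose and 4 fell, beside 11.7% higher and 8.08% lower of all genes. Pitx1, which specifies the hindlimb, rose by 4.41, Twist1 by 3.72 and Tbx3 by 3.43, and Lhx9 fell by 1.77. From CF1-D4 to CF1-D8, 13 fell and 0 rose by limma (24 and 3 at an unadjusted p under 0.05), beside 7.47% lower and 5.61% higher of all genes.

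Genes that flank the clusters were described in the same way. Of 13 matched flanking genes, 10 were tested, and 4 rose and 0 fell against day 0 in each arm by limma (1 was lower in each at an unadjusted p under 0.05), beside 22.2% and 21.1% higher and 19.4% lower of all genes. Against 4F-D7, Evx2 fell in 4F-iPSC. Skap2, an adaptor gene beside the HoxA cluster, rose by 1.46 in the 4-factor arm and by 1.82 in the chemical arm, while 8 and 9 HoxA genes were lost. In CF1-D4, Evx1, a homeobox gene beside Hoxa13, rose by 1.57.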
